A study of Mus musculus with 8 samples.

Results

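The cyclic AMP (cAMP) response of a cell is read out in the nucleus by CREB factors and shut off by genes that this response itself induces, and 10 genes of this circuit were followed in murine lung group 2 innate lymphoid cells (ILC2s), the lymphocytes that make the type 2 cytokines IL-5 and IL-13. The 10 genes were taken by symbol: the DNA-binding factors Creb1 and Crem, the acetyltransferase Crebbp, the CRTC coactivators Crtc1, Crtc2 and Crtc3, the kinase Sik1, and the cAMP phosphodiesterases Pde4b, Pde4d and Pde3b. All 10 were among the 23183 genes listed in every library and among the 12239 genes with enough counts to be tested. Per the culture methods, cells were enriched from the lungs of mice that received IL-33, by depletion of other lineages and CD45 beads. A sort is named there only for the Piezo1 knockout mice and their controls. The sequencing methods call the cells only purified. The mice were C57BL/6, and wild-type mice were 6 to 10 weeks old per the methods. The cells were then grown with IL-2, IL-7 and IL-33, so cytokine stimulation was common to both groups. Poly(A) RNA was sequenced from 4 samples given 5 µM Yoda1, a small molecule that opens the mechanosensitive cation channel Piezo1, and from 4 given its solvent, 0.1% DMSO, for 3 h. The labels do not say if a group's 4 samples are separate mice or cultures, so each p-value measures only the spread between these samples, which may be technical.

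Binding of a ligand to a Gs-coupled receptor activates adenylyl cyclase, and the cAMP it makes releases the catalytic subunits of protein kinase A (PKA), which phosphorylate CREB at its target genes. Phosphorylated CREB recruits the acetyltransferases CBP (the product of Crebbp) and p300, while CRTC proteins, held in the cytoplasm by salt-inducible kinases (SIKs) and released by cAMP or by the calcium-dependent phosphatase calcineurin, enter the nucleus and bind CREB as a further coactivator. The brakes follow, in that phosphodiesterases hydrolyse cAMP, SIK1 returns CRTC proteins to the cytoplasm, and short repressors made from an internal Crem promoter (ICER) occupy the CREB site. In ILC2s, cAMP is raised by several mediators, among them prostaglandins, adrenergic ligands and neuropeptides.

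The CREB site is the cAMP response element (CRE), the palindrome TGACGTCA, and its shorter core is TGACG on one strand or CGTCA when read on the other. Promoters of 300 bases, 250 before and 50 after a transcript start, were taken from RefSeq on GRCm38.p6 and matched 6 of the 10 genes with 9 promoters. Crem, Crtc2, Sik1 and Pde3b were not searched. The palindrome was in none of the 9 promoters and in 1.79% of all 32851 promoters (3.13% of those of tested genes), and the core, which includes every palindrome, was in 1 of the 9 and in 20.8% of all promoters (31.3% of those of tested genes). The single core among the 6 genes searched, in an internal promoter of Pde4b inside the gene's own span, is printed for that reason. It is set beside the palindromes of Areg, which encodes the epidermal growth factor receptor ligand amphiregulin, and of Dusp1, a phosphatase of MAP kinases, because both are known CREB targets that are described with the target genes, and beside 1 of the 3 cores of the kinase gene Sik3. Capitals mark the motif, and each position is that of the motif's first base, counted from the transcript's start base as 0.
Pde4b, position -34, chr4:102421496-102421550, plus strand: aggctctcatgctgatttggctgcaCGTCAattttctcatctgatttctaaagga
Areg, position -61, chr5:91139513-91139570, plus strand: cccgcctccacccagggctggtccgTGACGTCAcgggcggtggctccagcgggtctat
Dusp1, position -143, chr17:26508583-26508640, minus strand: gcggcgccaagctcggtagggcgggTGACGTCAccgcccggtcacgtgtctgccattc
Sik3, position -57, chr9:46012738-46012792, plus strand: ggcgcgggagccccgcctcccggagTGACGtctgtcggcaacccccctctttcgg
A match of letters is a description of the window and not evidence that a factor binds there. All 4 windows end before the transcript start, and the core of Pde4b reads TGACG on the strand opposite to its transcript.

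The libraries held 12438009 to 19534653 counts. TMM factors lay between 1.003 and 1.01 with DMSO and between 0.988 and 0.997 with Yoda1, without overlap. Replicates of a group differed by more than counting noise (chi-square per gene 2.03 to 6.94), so all 8 were kept as separate samples.

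Of the 10 genes, 1 was called, and it was higher: Crem rose, and none of the others passed an adjusted p of 0.05 in the edgeR quasi-likelihood test, adjusted after Benjamini-Hochberg for all 12239 genes. In the same test 1331 genes were called, which is a background of 10.9%, and 739 of them were higher (6.04%) and 592 lower (4.84%). The share of the 10 genes that was called was therefore close to the share of all genes. With scaling by library size alone the split over all genes was 553 higher and 809 lower, and with upper-quartile factors it was 505 higher and 958 lower. At an unadjusted p under 0.05 stood 4 of the 10 genes (Crem, Sik1, Creb1 and Pde4b), against 25.3% of all genes. The Yoda1 and DMSO libraries did not overlap for 2 of the 10 (Crem and Sik1), against 15.5% of all genes. The fitted log2 fold changes of the 10 genes ran from -0.14 to 0.26 with a median of 0.02, beside -0.01 for all genes, and their median absolute log2 fold change was 0.08, beside 0.09 for all genes.

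**Figure D1:**
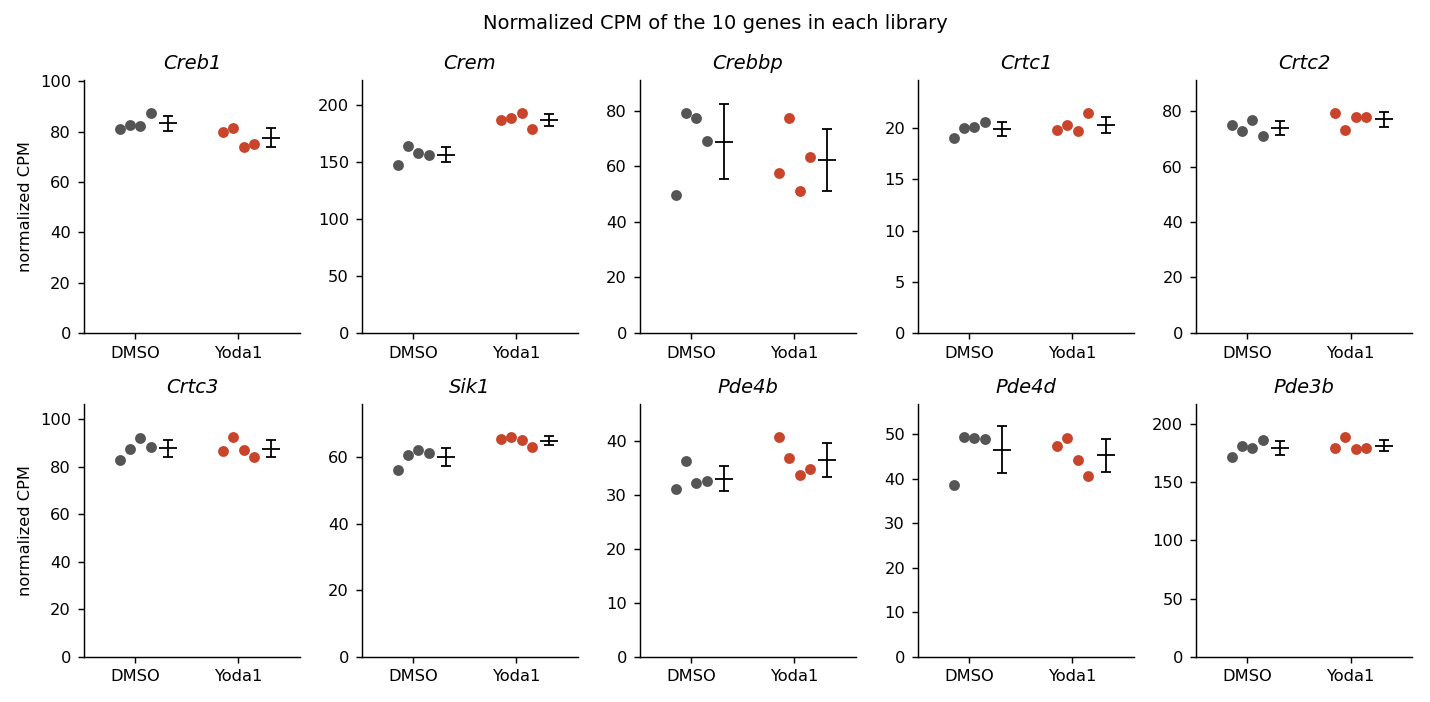
Normalized counts (CPM, counts per unit of library size; vertical axis from 0) of the 10 genes in the 4 DMSO (grey) and 4 Yoda1 (red) libraries; points stand in the order of the replicate numbers, and the bar gives the mean and SD of each group. Crem is separated with DMSO between 147 and 164 CPM and Yoda1 between 179 and 193 CPM, Sik1 is separated by a narrow margin, and Crebbp is spread widely within both groups.

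Crem, on chromosome 18, encodes the CREB family factor and yields both activators and the ICER repressors. Its normalized level, as CPM (counts divided by the TMM-scaled size of the library and set to one common total), was 147, 164, 158 and 156 in the DMSO libraries and 187, 188, 193 and 179 in the Yoda1 libraries, in the order of the replicate numbers. Every Yoda1 library was above every DMSO library. The group means were 156 ± 6.78 CPM and 187 ± 5.67 CPM (SD, n = 4 each), a fold of 1.19 and a log2 fold change of 0.26 ± 0.04 (SE), with a 95% interval from 0.18 to 0.34 and an adjusted p of 2.72e-05 in the edgeR quasi-likelihood test. The two-sided exact permutation test gave p = 0.0286, the smallest that 4 libraries against 4 allow. By p, Crem stood at rank 125 of the 12239 genes. By size, 259 of the 739 higher genes (35.0%) had a larger log2 fold change, and the median of the 739 was 0.21. Crem kept its call in all 16 alternatives, with log2 fold changes from 0.21 to 0.28 and adjusted p up to 0.000644 across edgeR, DESeq2 and limma-voom.

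The Crem values cover the whole gene. GENCODE M21 lists 39 transcripts of Crem, 32 of them coding, and a count per gene cannot separate the ICER transcripts from the activator transcripts, so the measured increase cannot be assigned to either. Crem also overlaps Gm6225, a gene on the opposite strand, and the strand setting of the counting is not given in the sources used here. Gm6225 itself held 19 to 49 counts per library, beside 2113 to 3489 for Crem.

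The difference in Crem stood beside differences in genes used as cell type markers. All 12 ILC2 markers were tested and 7 were higher with Yoda1, beside 6.04% of all genes. This list includes the cytokine genes Il13 and Il5, and Areg, which is also listed with the CREB target genes. The summed level of the 12 was 14961 to 15426 CPM with DMSO and 17138 to 17537 CPM with Yoda1. Il13 alone averaged 6049 CPM. Of 6 NK cell markers 2 were higher, Eomes and Prf1, beside the same 6.04%. The sum of the 6, most of it Prf1, was 443 to 498 CPM with DMSO and 495 to 524 CPM with Yoda1. The other marker lists described here held no called gene, and their sums overlapped between the groups. For 8 T cell markers the sum was 89.1 to 96.5 CPM with DMSO and 94.5 to 103 CPM with Yoda1. The sums were at most 7.31 CPM for the lists of macrophages or monocytes and of mast cells or basophils, and 213 to 227 CPM with DMSO and 218 to 223 CPM with Yoda1 for epithelium, endothelium or fibroblasts, nearly all of it Pecam1. On these lists Csf1r, Lyz2, C1qa, C1qb, Mrc1, Fcer1a, Mcpt4, Sftpc, Scgb1a1 and Cdh5 had at most 3 counts in every library. Their other genes had more. Enough counts to be tested were held by 1 of 8 macrophage or monocyte markers and 3 of 7 mast cell or basophil markers. The same held for 2 of 7 markers of epithelium, endothelium or fibroblasts. The part of any of these cells in the Crem difference was not tested, and in bulk RNA fewer cells of a type and less RNA per cell cannot be told apart.

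Creb1 (chr1:64532645-64604548, plus strand, GRCm38) encodes CREB itself, the constitutive activator that PKA phosphorylates. Its normalized level was 81.0, 82.5, 82.2 and 87.4 CPM in the DMSO libraries and 80.0, 81.5, 73.7 and 75.0 CPM in the Yoda1 libraries. The groups overlapped, with 3 Yoda1 libraries below every DMSO library and replicate 2 within their range. The log2 fold change was -0.10 ± 0.04 (SE; 95% interval -0.19 to -0.01), and the adjusted p was 0.145 in the edgeR quasi-likelihood test. With upper-quartile factors, under which the median of all genes stood at -0.036, Creb1 passed with a log2 fold change of -0.13 and an adjusted p of 0.0456 by the same test.

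Within a library the counts of Crem and Creb1 can be set against each other without any scaling. The ratio of Crem to Creb1 counts was 1.82, 1.99, 1.93 and 1.79 in the DMSO libraries and 2.34, 2.31, 2.62 and 2.39 in the Yoda1 libraries. The groups did not overlap, and the ratio was 1.28 times higher with Yoda1, or 0.36 on the log2 scale. The exact permutation test gave p = 0.0286, the smallest possible, and 0.171 after Benjamini-Hochberg adjustment over the 6 ratios examined. That adjusted value also depends on the other ratios, of which the lowest exact permutation p was 0.114.

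**Figure D2:**
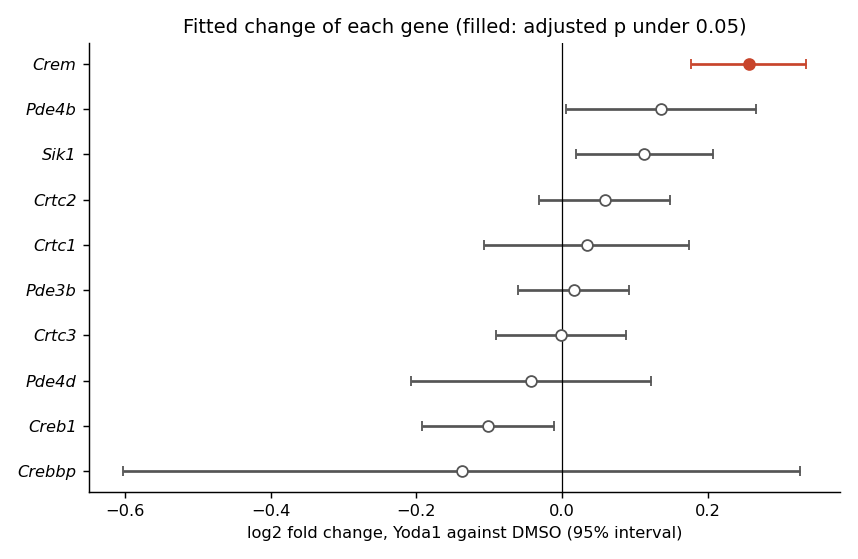
Fitted log2 fold change of each gene, Yoda1 against DMSO (horizontal axis), with its 95% interval from edgeR's quasi-likelihood fit; the filled red point marks an adjusted p under 0.05. Crem, at 0.26, is the single filled point, the intervals of Pde4b, Sik1 and Creb1 also lie to one side of 0, and that of Crebbp, from -0.60 to 0.33, is the widest.

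Crebbp (chr16:4081328-4213997, minus strand) encodes CBP, the acetyltransferase that phosphorylated CREB recruits. It was the least precisely measured of the 10 genes. Its level was 49.8, 79.2, 77.4 and 69.1 CPM with DMSO and 57.6, 77.4, 51.1 and 63.3 CPM with Yoda1. The groups overlapped over nearly their whole range, and the lowest and the highest value were both in DMSO libraries. The log2 fold change was -0.14 ± 0.19 (SE; 95% interval -0.60 to 0.33; adjusted p = 0.732 in the edgeR quasi-likelihood test), and as a fold the interval ran from 0.659 to 1.25. Its SD within groups, 0.28 on the log2 scale, was larger than that of 89.8% of the genes tested. Ep300, which encodes the related acetyltransferase p300, ran from 189 to 230 CPM with DMSO and from 192 to 244 CPM with Yoda1 and did not differ detectably (log2 fold change 0.03 ± 0.08 SE; adjusted p = 0.877 by the same test). The ratio of Crebbp to Ep300 counts averaged 0.321 with DMSO and 0.286 with Yoda1 (exact permutation p = 0.286, 0.429 adjusted over the 6 ratios).

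The 2 libraries in which Crebbp was furthest below its group mean were also those in which long transcripts were lowest. The Crebbp coding transcript of 10820 bases was the longest of the 10. Across the 2265 tested genes with the longest transcripts (at least 5127 bases), the median deviation from the group mean on the log2 CPM scale was -0.07 in DMSO replicate 1 and -0.05 in Yoda1 replicate 3, and between -0.01 and 0.06 in the other 6 libraries. In these same 2 libraries Crebbp deviated by -0.44 and -0.27, and Ep300 by -0.16 and -0.17. Pde4d deviated by -0.26 in the first and by -0.03 in the second. Crebbp and the long transcripts were both high in Yoda1 replicate 2 (0.33 and 0.06) and in DMSO replicate 3 (0.19 and 0.04). They parted in DMSO replicate 2, where Crebbp deviated by 0.22 with long transcripts at 0.01. The same held in Yoda1 replicate 1, where Crebbp deviated by -0.10 with long transcripts at 0.01. In replicate 4 Crebbp stood at 0.03 (DMSO) and 0.04 (Yoda1), with long transcripts at 0.04 and -0.01. Without both libraries Crem was still the single one of the 10 genes that was called, and the part of transcript length in the spread of Crebbp was not tested.

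**Figure D3:**
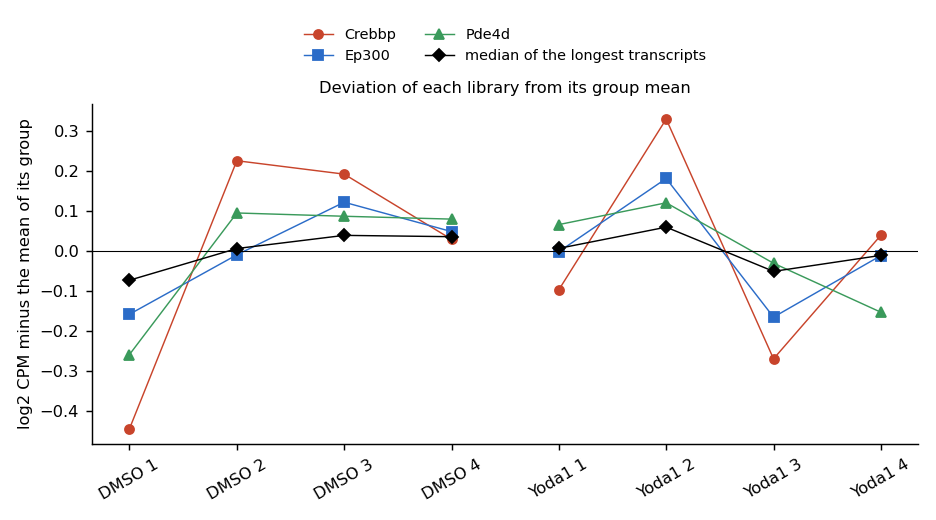
Deviation of log2 CPM from the mean of its group (vertical axis) in each library (horizontal axis) for Crebbp, Ep300 and Pde4d and for the median of the 2265 longest transcripts; lines join libraries of one group and carry no order. The markers of Crebbp, Ep300 and the long transcripts lie below 0 in DMSO replicate 1 and Yoda1 replicate 3, with Crebbp at -0.44 and -0.27.

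The CRTC coactivators bind CREB and, when dephosphorylated, carry the calcium and cAMP signals to it. No change was detectable in any of the 3. Crtc1 (chr8:70382355-70439579) ranged from 19.0 to 20.6 CPM with DMSO and from 19.7 to 21.5 CPM with Yoda1, with a log2 fold change of 0.03 (95% interval -0.11 to 0.17). Crtc2 (chr3:90254163-90264125) ranged from 71.0 to 76.9 CPM and from 73.1 to 79.4 CPM, with a log2 fold change of 0.06 (95% interval -0.03 to 0.15). For Crtc3 (chr7:80586627-80688877) the ranges were 82.9 to 91.8 CPM and 83.9 to 92.5 CPM, and the log2 fold change was -0.0014 with a 95% interval from -0.09 to 0.09. The adjusted p was 0.815, 0.437 and 0.989 in that order in the edgeR quasi-likelihood test. As a fold, the interval ran from 0.979 to 1.11 for Crtc2 and from 0.939 to 1.06 for Crtc3. The counts of Crtc1 against Crtc2, and of Crtc2 against Crtc3, also overlapped between the groups (exact permutation p = 0.600 and 0.400, and 0.600 and 0.480 adjusted over the 6 ratios).

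Sik1 (chr17:31844250-31855804, minus strand) is the salt-inducible kinase that cAMP itself induces and that phosphorylates CRTC proteins. Its level was 56.0, 60.6, 62.2 and 61.2 CPM in the DMSO libraries and 65.4, 66.1, 65.2 and 63.0 CPM in the Yoda1 libraries. The lowest Yoda1 library stood just above the highest DMSO library. The log2 fold change was 0.11 ± 0.05 (SE; 95% interval 0.02 to 0.21), and although the exact permutation test gave its smallest possible p of 0.0286, the adjusted p over all genes was 0.115 in the edgeR quasi-likelihood test. It did not pass in any of the 16 alternatives, where its log2 fold change stayed between 0.08 and 0.13.

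Pde4b and Pde4d encode cAMP-specific phosphodiesterases of the PDE4 family, and Pde3b encodes one that cGMP inhibits. For Pde4b (chr4:102087543-102607259) the level was 31.0, 36.3, 32.1 and 32.6 CPM with DMSO and 40.7, 36.8, 33.6 and 34.7 CPM with Yoda1. The groups overlapped through DMSO replicate 2, and the highest value was that of Yoda1 replicate 1. The log2 fold change was 0.14 ± 0.06 (SE; 95% interval 0.01 to 0.27) with an adjusted p of 0.177 in the edgeR quasi-likelihood test, and 0.08 to 0.19 over the alternatives with no call.

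Pde4d (chr13:108449948-109953461) stood at 38.7, 49.5, 49.2 and 48.9 CPM with DMSO and at 47.3, 49.1, 44.2 and 40.6 CPM with Yoda1. One DMSO library was low, the other 3 were nearly equal, and the groups overlapped. The log2 fold change was -0.04 ± 0.08 (SE; 95% interval -0.21 to 0.12; adjusted p = 0.793 in the edgeR quasi-likelihood test). Pde3b (chr7:114415281-114539251) was at 172 to 186 CPM with DMSO and 178 to 189 CPM with Yoda1, and its log2 fold change of 0.02 had a 95% interval from -0.06 to 0.09 (adjusted p = 0.844 in the same edgeR test). The ratio of Pde4b to Pde4d counts averaged 0.711 with DMSO and 0.804 with Yoda1, and that of Pde4b to Pde3b 0.184 and 0.200, and neither passed (exact permutation p = 0.114 for each, 0.229 adjusted over the 6 ratios).

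**Figure D4:**
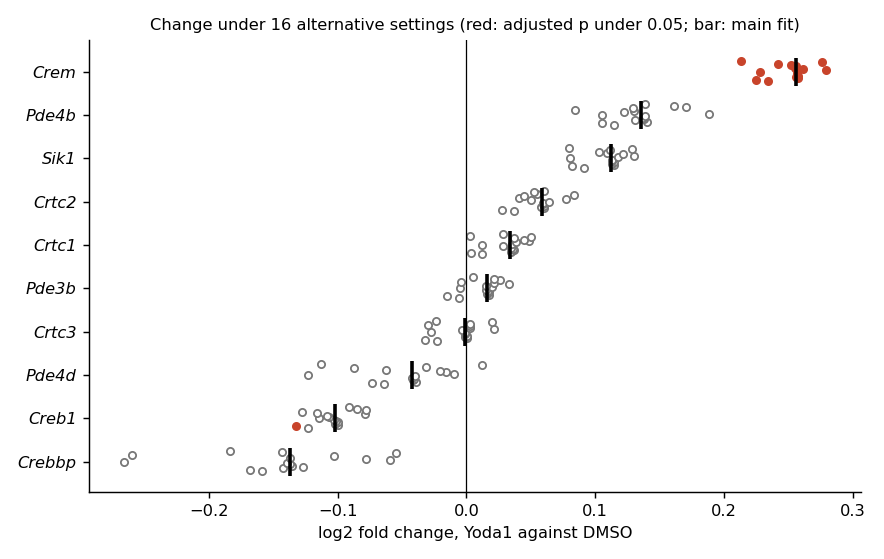
Log2 fold change of each gene, Yoda1 against DMSO (horizontal axis), under 16 alternative settings (points, red where the adjusted p was under 0.05) and as reported (black bar). Crem is red at every setting, between 0.21 and 0.28, Creb1 is red at one, and the points of Crtc3, Pde3b and Pde4d lie on both sides of 0.

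Levels of different genes were compared per kilobase of the longest coding transcript. In the DMSO libraries Crem was the highest at 53.4 ± 2.31 CPM per kilobase (SD, n = 4), followed by Pde3b at 27.3 ± 0.918 and Crtc2 at 26.9 ± 0.932, whose ranges overlapped. Crtc3 (17.1 CPM per kilobase) and Sik1 (13.3 CPM per kilobase) came next and were each separate from their neighbours. Pde4d (11.1 CPM per kilobase) and Creb1 (9.96 CPM per kilobase) overlapped, as did Pde4b (7.66 CPM per kilobase) and Crebbp (6.36 CPM per kilobase), and Crtc1 was the lowest at 3.51 CPM per kilobase. Among the CRTC genes the order was thus Crtc2, Crtc3, Crtc1, and among the phosphodiesterases Pde3b was above Pde4d and Pde4b. With the union of all exons as the length, 4 of the 10 genes kept their rank, the first 3 and the last.

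The genes whose profile over the 8 libraries lay nearest to that of Crem, by root mean square distance of log2 CPM centred on each gene's own mean, were Got1 (0.030), Sec14l1 (0.036) and Areg (0.036), beside a median of 0.173 over all genes. This distance includes the difference between the groups, and Got1, Sec14l1 and Areg were themselves called higher (log2 fold change 0.25, 0.26 and 0.20). Got1 encodes the cytosolic aspartate aminotransferase. The nearest to Crebbp were Lrrc58 (0.094), Dip2b (0.099) and Cdk6 (0.100), which also did not pass the test, beside a median of 0.280. For Pde4b they were Glcci1 (0.047), Itpkb (0.052) and Hsbp1 (0.053), beside a median of 0.157.

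Around the 10 genes, 103 further genes of the pathway were grouped by role, of which 86 had enough counts to be tested. In the edgeR quasi-likelihood test 15 of the 86 were higher and 1 was lower, and 10 of the 15 were CREB target genes, beside 6.04% higher and 4.84% lower over all genes. Without the target genes 6 of 69 were called, or 8.70%, beside 10.9% over all genes. Upstream, among 11 genes of cAMP synthesis and G proteins, Adcy7 rose (log2 fold change 0.16, adjusted p = 0.00593 by edgeR), as did Gnas, which encodes the stimulatory G protein subunit at a locus of overlapping transcripts (0.14, adjusted p = 0.00735 by edgeR), and Adcy5 fell (-0.24, adjusted p = 0.0134 by edgeR). Adcy7 and Adcy5 both encode membrane adenylyl cyclases. Of 18 PKA subunits, inhibitors and anchors, Akap12, which anchors PKA near the membrane, rose by 0.27 on the log2 scale (adjusted p = 0.00481 by edgeR), and no PKA subunit was called. None of the 2 other cAMP effectors tested, the 9 other CREB and ATF family factors or the 7 other acetyltransferase coactivators was called.

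Among the closest relatives of the feedback genes, each of the 2 lists had 1 gene of 11 called, near the background of 10.9%. Of 11 other phosphodiesterases only Pde8a passed, narrowly (log2 fold change 0.18, adjusted p = 0.0496 in the edgeR quasi-likelihood test), and it was called in 5 of the 16 alternatives. Of 11 genes of the SIK pathway, Sik3 was higher, at 217, 238, 245 and 241 CPM with DMSO and 263, 278, 256 and 267 CPM with Yoda1. The groups did not overlap (log2 fold change 0.18 ± 0.04 SE, adjusted p = 0.00311 in the edgeR quasi-likelihood test). Sik3 encodes a kinase of the same family as Sik1, and Sik2 stood at a log2 fold change of 0.19 with an adjusted p of 0.168 by the same test.

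Of 17 CREB target genes tested, 10 were higher and none lower in the edgeR quasi-likelihood test, beside 6.04% and 4.84% over all genes. All 17 had a log2 fold change above 0, except Junb with upper-quartile factors, and their median was 0.37, beside 0.02 for the 10 genes and -0.01 for all genes. Much of this list had been seen to move in these data when it was drawn up, so its direction is not independent evidence. The largest changes were those of Nr4a2 (2.11 on the log2 scale), Nr4a3 (1.50), Fosb (1.34) and Nr4a1 (0.75), immediate early genes that encode nuclear receptors and an AP-1 subunit, with adjusted p of 2.34e-11, 0.000308, 3.28e-06 and 2.36e-11 in the edgeR quasi-likelihood test. Many of them also respond to calcium and to MAP kinases. Areg and Dusp1, whose palindromes are printed above, were higher by 0.20 and 0.38 on the log2 scale (adjusted p = 0.000372 and 0.00189 by the same test). Prkar1a, a PKA subunit gene outside this list, also had the palindrome and did not differ detectably (0.03, adjusted p = 0.695 by the same test). Of the 14 tested target genes matched to a promoter, 12 had the core and 2 the palindrome, beside 36.0% and 3.72% of the tested genes that were matched. The list was drawn up as known CREB targets, so this share is not independent evidence either.

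**Figure D5:**
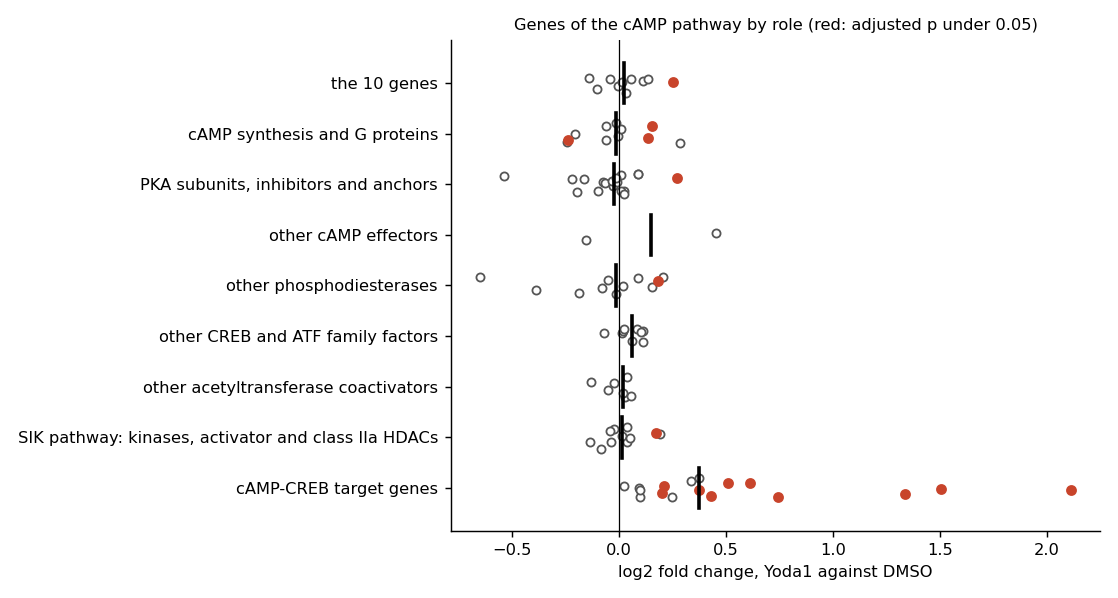
Log2 fold change, Yoda1 against DMSO (horizontal axis), of the tested genes of each pathway list and of the 10 genes (vertical axis; vertical scatter within a list only separates points); red marks an adjusted p under 0.05 and the black bar the median of the list. The target genes spread from 0.02 to 2.11 with a median of 0.37, whereas the other lists hold at most 3 red points each.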

How the data were processed

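Poly(A) RNA of 8 ILC2 samples, 4 with Yoda1 and 4 with DMSO, was sequenced, and groups follow the sample titles. The authors deposited raw whole-number read counts, one table of gene symbols per library. The submitters' processing notes name TopHat and mm10, whereas the methods name FASTX Trimmer, BBMap and Cufflinks; tool versions, the annotation and the strand setting are not given in the sources used here. The kit was directional. No molecular identifiers are mentioned, so reads cannot be taken as independent molecules.

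Counts were filtered with filterByExpr (minimum count 10, minimum total 15), scaled with TMM and compared with the robust quasi-likelihood test of edgeR 4.0.16 in R 4.3.3, with Benjamini-Hochberg adjustment over all tested genes at 0.05. This count test was checked on simulated data. CPM are of the TMM-scaled library, and a log2 prior count of 2 was used for deviations and profile distances. Single values and ratios were compared by two-sided exact permutation tests (scipy 1.17.1). Positions and lengths came from GENCODE M21 (GRCm38), which matched 95.5% of the symbols, and promoters from RefSeq (GRCm38.p6).

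The members and the pathway and marker lists were chosen with earlier results of these data known. Named are all 10 genes, Ep300, up to 4 called genes of each pathway list with the largest changes, and the 3 nearest profiles to each of the 3 members with the largest changes. Sik2, Dusp1, Junb, Prkar1a and single markers were named after their values or sequences were seen. The B cell list is not reported here. Alternatives were library size only, upper-quartile factors, DESeq2 1.42.0, limma-voom (limma 3.58.1), no filter, at least 10 counts in every sample, the replicate number as a block, each library left out, another gene length, and, chosen after seeing the data, both libraries lowest for long transcripts left out.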

Additional observations from a re-analysis of the deposited data

Results flagged for a closer look

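In 32 groups of 4 values (the level of each of the 10 genes and the 6 ratios, in each group), 3 held a library far from the other 3, where chance alone gives about 1.6. Pde4d was low in DMSO replicate 1, at 38.7 CPM against 48.9 CPM in the nearest DMSO library. Pde3b was high in Yoda1 replicate 2, at 189 CPM against 179 CPM in the nearest Yoda1 library. The ratio of Pde4b to Pde3b counts was high in Yoda1 replicate 1, at 0.227 against 0.195 in the nearest Yoda1 library.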

How the results depend on the processing

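Crem kept its direction and its call in all 16 alternatives, and Creb1 alone crossed the threshold: with upper-quartile factors 2 of the 10 genes were called, Creb1 being lower at -0.13 on the log2 scale (adjusted p = 0.0456 in the edgeR quasi-likelihood test). Near 0, Crtc3 changed sign with DESeq2 (0.00049) and with no filter (0.00047), and Pde3b with library size only (-0.0057) and upper-quartile factors (-0.015). With 1 library left out, Crtc3 ran from -0.030 to 0.022, Pde3b from -0.0052 to 0.033 and Pde4d from -0.12 to 0.013, Crebbp stayed below 0 but ran from -0.27 to -0.055, the change of the Pde4b to Pde3b ratio ran from 0.066 to 0.17 on the log2 scale, the cause was not tested, and the number of the 10 genes called stayed at 1. Leaving out single libraries gave 893 to 1484 called genes in all and 15 to 17 of the pathway. The per-length order by exon union kept 4 of 10 ranks. Same-numbered replicates did not deviate together (correlations 0.048, 0.071, -0.028 and 0.00023), and only replicate 2 lay closest to its own number. No pairing by number was thus visible. These correlations cannot show whether same-numbered samples share a mouse or culture, which the labels do not state. With the replicate block 966 genes, 1 of the 10 and 15 of the pathway were called. Without both libraries lowest for long transcripts, a choice made after seeing the data, 1337 genes, 1 of the 10 and 19 of the pathway were called. No scaling moved the median of all genes beyond -0.036. The lowest count of any of the 10 genes in a library was 246, that of Crtc1.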
